A study of Mus musculus with 4 samples.

Results

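The genes described here handle fat in cells of the macrophage and dendritic lineage: its uptake, its storage in droplets and its export as cholesterol. They are 10 of the 13685 genes listed in any of the deposited tables, taken by symbol: Lpl, Fabp4, Fabp5, Apoe, Abca1, Abcg1, Dgat2, Scd1, Scd2 and Pparg. The study measured RNA of mouse dendritic cells by sequencing after removal of ribosomal RNA. Wnt2 is a secreted signalling ligand, and CAF.CM is the culture medium of CAF, the usual abbreviation for cancer-associated fibroblasts.

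All cells came from the bone marrow of C57BL/6 mice aged 4 weeks and were cultured for 7 days in IL-4 and GM-CSF, each at 10 ng/ml. The Wnt2 group received Wnt2. The CAF.CM+Wnt2 Ab group received CAF.CM that had been incubated beforehand with a Wnt2 antibody. The CAF.CM group received CAF.CM without antibody, and the control group was kept in control medium. A group with an unrelated antibody was not analysed here, and the labels give no dose or duration of treatment. The series text speaks of triplicates, but each group has 1 column of values, so no spread between replicates could be estimated. All intervals below cover counting error only, and no p-value was computed. In such bulk RNA, fewer cells of a type and less RNA per cell cannot be told apart.

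Values are CPM, the reads of a gene scaled to library size, as the authors deposited them. Reads over the listed genes came to 154399767 for Wnt2, 22791494 for CAF.CM+Wnt2 Ab, 25225220 for CAF.CM and 143071376 for control, so the CAF.CM+Wnt2 Ab and CAF.CM libraries were the shallower ones. A gene is listed in a table only where 1 or both libraries passed about 1 CPM. The columns present in more than 1 table were identical in both, which put the 4 libraries on 1 scale. Dendritic cell markers summed to 787.6 CPM in Wnt2, 1838 CPM in CAF.CM+Wnt2 Ab, 1970 CPM in CAF.CM and 3681 CPM in control. Of 13 such markers, 12, 10, 11 and 12 were listed in the same order. Against control, 6 of 12 were at least 2-fold lower with Wnt2 and 3 of 11 with CAF.CM, and 0 were higher in either. The markers differed among themselves: Itgax, the gene of CD11c, stood at 222.8, 30.3, 47.7 and 887.6 CPM in the same order. H2-Ab1, an MHC class II gene, stood at 71.0, 520.7, 483.2 and 489.3 CPM. Macrophage and monocyte markers, with 14 of 14 listed, summed to 21170, 6702, 9663 and 29564 CPM in the same order, most of it Lyz2. No listed marker of either list stood at 0 in any library. Of 8 fibroblast markers, 5, 2, 3 and 5 were listed, so their sums of 12.2, 63.0, 35.03 and 11.6 CPM cover different genes. Col5a1 was the highest of them in each library, at 6.36, 49.1, 23.6 and 5.12 CPM. With CAF.CM, Col5a1 and Dcn were at least 2-fold higher than in control and Postn lower. None of the 8 adipocyte markers was listed in any table. Among neutrophil markers 1 of 8 was listed, S100a8 at 11.8, 2.54, 4.11 and 4.64 CPM. Of 7 mast cell, basophil and eosinophil markers 1 was listed, Siglecf, at 1.72 CPM in Wnt2, 0.19 CPM in CAF.CM and 11.4 CPM in control, and not listed for CAF.CM+Wnt2 Ab.

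Lipoprotein lipase frees fatty acids from circulating triglycerides, and fatty acid binding proteins carry them inside the cell. Surplus fatty acids are desaturated and joined into triglycerides that are kept in lipid droplets, while surplus cholesterol leaves through ABC transporters onto apolipoproteins. The nuclear receptors PPARγ and LXR switch on many genes of uptake and of efflux, and in macrophages and dendritic cells they tie lipid load to gene expression.

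Abca1 and Apoe are textbook targets of LXR, and their levels separated in these libraries, so the 250 bases before the start site of each are shown first. They are credited to RefSeq on GRCm38.p6, where 3 of the 10 genes had an entry. Apoe had further entries, and the one shown is the one at the annotated start of the gene. Whether these sequences bear on the levels was not tested. The Abca1 sequence lies at chr4:53159896-53160145 and the Apoe sequence at chr7:19699189-19699438, both on the minus strand and printed 5′ to 3′ along the gene. Capitals mark the repeat described after them.

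Abca1: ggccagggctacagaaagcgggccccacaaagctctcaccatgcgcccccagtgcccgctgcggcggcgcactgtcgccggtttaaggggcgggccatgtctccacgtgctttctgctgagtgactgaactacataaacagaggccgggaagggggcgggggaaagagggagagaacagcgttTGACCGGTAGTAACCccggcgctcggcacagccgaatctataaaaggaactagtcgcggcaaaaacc
Apoe: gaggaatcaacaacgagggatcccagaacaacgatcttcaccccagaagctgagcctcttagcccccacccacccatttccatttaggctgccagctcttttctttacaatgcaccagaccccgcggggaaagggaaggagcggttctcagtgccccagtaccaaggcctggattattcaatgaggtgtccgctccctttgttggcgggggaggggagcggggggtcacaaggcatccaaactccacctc

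The capitals hold, on the other strand, the form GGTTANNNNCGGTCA of a direct repeat bound by LXR and its partner RXR, at bases -67 to -53 from the start site of Abca1. This form was searched because it is the one known for Abca1, after the sequence had been seen, and both strands were searched throughout. It occurred in 0.0122% of 32851 windows in the RefSeq table. Each window searched has 300 bases, the 250 before the start and 50 past it. The consensus repeat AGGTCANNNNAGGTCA occurred in 0.0152% of them, and the PPAR repeat AGGTCANAGGTCA in 0.0396%. The SREBP element TCACNCCAC occurred in 1.24% of windows, the E-box CACGTG in 7.15% and TATAAA in 13.6%. The Abca1 window also held CACGTG at bases -147 to -142 and TATAAA at bases -29 to -24. None of these 6 motifs was found in the 300-base Apoe window that holds the sequence shown, which says only that these letters are not in it. Another Apoe entry, at chr7:19698572-19698871, held TATAAA on both strands.

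Lpl and Apoe dominated the 10 genes in control cells and followed different courses. With Wnt2, Lpl was 14.5-fold lower than in control while Apoe was nearly level with it. With CAF.CM both were lower, Lpl 5.05-fold and Apoe 9.86-fold, and the desaturase genes Scd1 and Scd2 were higher. The triglyceride synthesis gene Dgat2 was higher with Wnt2 and with CAF.CM, 10.1-fold and 17.6-fold, from a low level in control. With the Wnt2 antibody added to CAF.CM none of the 9 genes listed differed from CAF.CM alone by 2-fold. Few of all listed genes did so either, 1.02% being higher and 3.65% lower.

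The 10 genes summed to 7047 CPM with Wnt2, 2804 CPM with CAF.CM+Wnt2 Ab, 3441 CPM with CAF.CM and 10448 CPM in control. These sums were 0.701%, 0.286%, 0.355% and 1.034% of the CPM listed for each library. Lpl and Apoe together made up 73.0% of the summed CPM of the 10 genes with Wnt2, 31.6% with CAF.CM+Wnt2 Ab, 37.2% with CAF.CM and 83.7% in control. Divided by transcript length, Apoe was the highest of the 10 with Wnt2, at 3453 CPM per kb, and in control, at 3301 CPM per kb. In CAF.CM+Wnt2 Ab and in CAF.CM that place was taken by Fabp5, at 323.3 and 471.7 CPM per kb, ahead of Apoe at 188.0 and 334.6 CPM per kb. Lpl stood at 68.9 CPM per kb with Wnt2, below Apoe, Fabp5 and Abca1, and at 995.4 CPM per kb in control, below Apoe alone. Pparg was the lowest of the 10 per kb with Wnt2 and with CAF.CM, at 0.312 and 0.379 CPM per kb, whereas Dgat2 was the lowest in control at 0.350 CPM per kb.

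**Figure D1:**
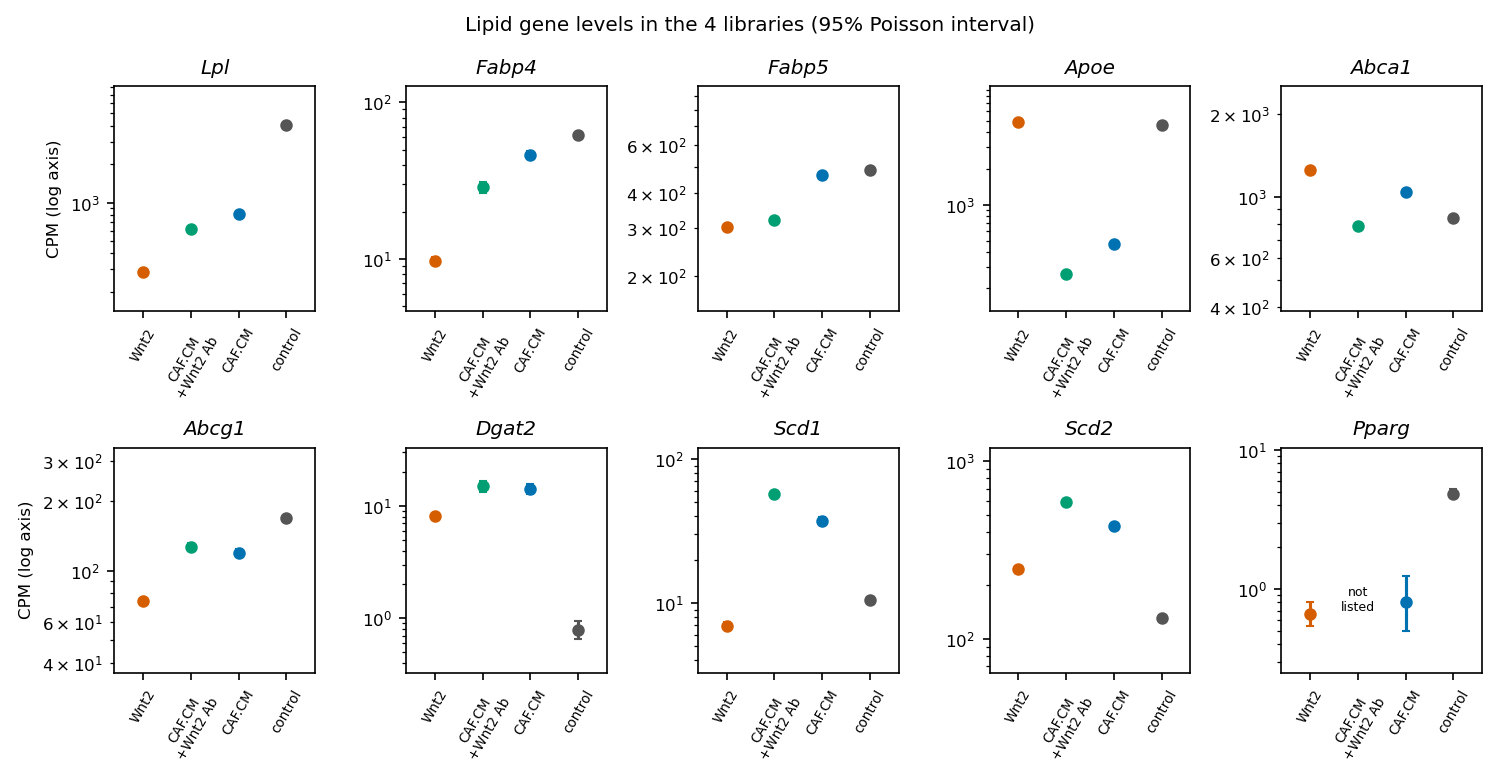
Level of each of the 10 lipid genes in CPM (log axis, a separate scale per gene) in the Wnt2, CAF.CM+Wnt2 Ab, CAF.CM and control libraries; bars are 95% Poisson intervals of the read count and are often smaller than the point. Lpl is highest in control at 4096 CPM and lowest with Wnt2 at 283.4 CPM, Apoe is high with Wnt2 and in control, and Dgat2 is lowest in control at 0.791 CPM.

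Among the uptake genes, Lpl (chr8:68880491-68907448, GRCm38, plus strand) encodes lipoprotein lipase, which releases fatty acids from lipoprotein triglycerides. It measured 283.4 CPM with Wnt2, 622.3 CPM with CAF.CM+Wnt2 Ab, 810.5 CPM with CAF.CM and 4096 CPM in control. All treated libraries thus lay below control, and the Wnt2 library lay lowest. The log2 ratio to control was -3.85 with Wnt2 (95% interval -3.87 to -3.84) and -2.34 with CAF.CM (-2.36 to -2.32). In the Wnt2 comparison this placed Lpl at the 0.0305th percentile of all listed genes. With the antibody the log2 ratio to CAF.CM was -0.38 (-0.41 to -0.35), so the antibody library lay further below control than CAF.CM did. Cell type markers differed as well: with Wnt2, 6 of 12 dendritic cell markers were at least 2-fold lower than in control and 0 higher (median -1.02), and 6 of 14 macrophage and monocyte markers were lower and 1 higher (median -0.80). Their part in the Lpl result was not tested.

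Fabp4 (chr3:10204088-10208576, minus strand) encodes the fatty acid binding protein of adipocytes and macrophages. It stood at 9.80 CPM with Wnt2, 28.7 CPM with CAF.CM+Wnt2 Ab, 46.0 CPM with CAF.CM and 62.2 CPM in control. Its order across the libraries was that of Lpl. Fabp4 was 6.34-fold lower with Wnt2 than in control, a log2 ratio of -2.67 (-2.75 to -2.59), and within 2-fold of it with CAF.CM, at -0.43 (-0.52 to -0.35). Against CAF.CM the antibody library gave -0.68 (-0.82 to -0.55), and against control -1.12 (-1.234 to -1.004).

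Fabp5 (chr3:10012548-10016607, plus strand), on the same chromosome as Fabp4, encodes the epidermal fatty acid binding protein and differed less. It measured 301.8 CPM with Wnt2, 319.1 CPM with CAF.CM+Wnt2 Ab, 465.6 CPM with CAF.CM and 485.5 CPM in control. The CAF.CM and control libraries were nearly level, and the Wnt2 and antibody libraries were lower than both. The log2 ratios were -0.69 for Wnt2 over control (-0.70 to -0.67), -0.06 for CAF.CM over control (-0.09 to -0.03) and -0.55 for CAF.CM+Wnt2 Ab over CAF.CM (-0.59 to -0.50). The sign of the CAF.CM value turned when libraries were scaled by total counts. Its level is uncertain, because 33.12% of the 31-base words of its transcript also occur in other genes, mainly the predicted gene Gm6166, which no table lists.

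The coding sequences of Fabp4 and Fabp5 were compared with each other only. How much of the sharing with Gm6166 falls in the coding sequence of Fabp5 was not looked at. A stretch of Fabp4 and of Fabp5 is shown because the 2 genes gave unlike ratios, with capitals at the bases where they differ. It runs from coding base 48 of Fabp4 and from coding base 54 of Fabp5 in GENCODE M21.

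Fabp4: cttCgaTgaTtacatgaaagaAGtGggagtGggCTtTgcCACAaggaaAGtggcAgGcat
Fabp5: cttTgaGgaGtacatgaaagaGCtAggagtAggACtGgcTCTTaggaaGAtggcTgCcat

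Over 384 aligned coding bases the 2 genes were 66.1% identical, with 18 differences in the 60 bases shown, and they shared no 31-base word of coding sequence.

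**Figure D2:**
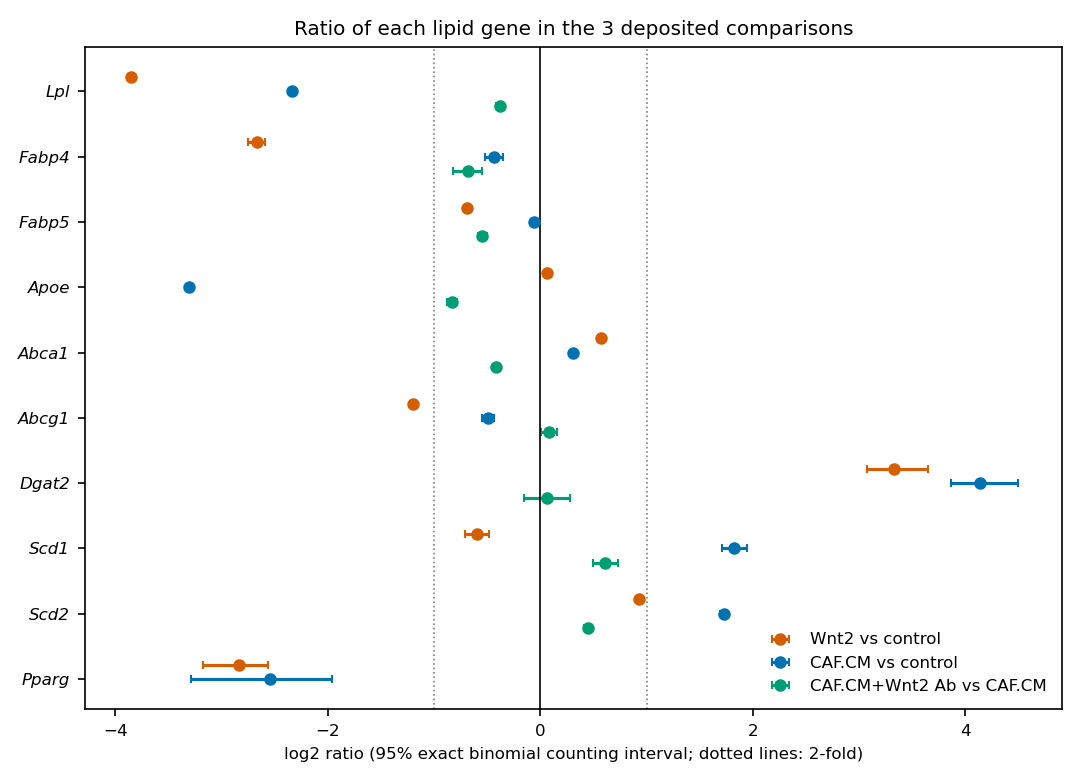
Log2 ratio of each lipid gene (rows) in the Wnt2 vs control, CAF.CM vs control and CAF.CM+Wnt2 Ab vs CAF.CM comparisons; bars are 95% exact binomial intervals that cover counting error only, and dotted lines mark 2-fold. Lpl and Pparg lie left of the 2-fold line with Wnt2 and with CAF.CM, Dgat2 lies right of it in both, Apoe lies left of it with CAF.CM at -3.30 and near 0 with Wnt2, and no antibody point passes 2-fold.

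Among the efflux genes, Apoe (chr7:19696109-19699188, minus strand) encodes the apolipoprotein E that macrophages secrete with exported cholesterol. It measured 4862 CPM with Wnt2, 264.8 CPM with CAF.CM+Wnt2 Ab, 471.2 CPM with CAF.CM and 4647 CPM in control. The Wnt2 and control libraries were close to each other, and both CAF.CM libraries were far below them. The log2 ratio was 0.07 for Wnt2 over control (0.06 to 0.07) and -3.30 for CAF.CM over control (-3.33 to -3.28). Adding the antibody gave -0.83 against CAF.CM (-0.88 to -0.79). The macrophage and monocyte markers were lower in these libraries too: 8 of 14 were at least 2-fold lower with CAF.CM than in control, with 2 higher and a list median of -1.64, and 5 of 14 were at least 2-fold lower with CAF.CM+Wnt2 Ab than with CAF.CM, with a median of -0.85. Of dendritic cell markers, 3 of 11 were lower with CAF.CM (median -0.43) and 0 of 10 with the antibody against CAF.CM (median -0.30). Their part in the Apoe result was not tested.

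Abca1 (chr4:53030787-53159895, minus strand), the transporter that loads cholesterol onto lipid-poor apolipoproteins, was within 2-fold in each comparison. It stood at 1252 CPM with Wnt2, 782.2 CPM with CAF.CM+Wnt2 Ab, 1044 CPM with CAF.CM and 841.3 CPM in control. The log2 ratio was 0.57 for Wnt2 over control (0.56 to 0.58), 0.31 for CAF.CM over control (0.29 to 0.33) and -0.42 for CAF.CM+Wnt2 Ab over CAF.CM (-0.44 to -0.39). Abca1 thus stayed within 2-fold in the CAF.CM libraries, where Apoe was several fold below control. With Wnt2 the ratio of Abca1 to control lay at the 92.4th percentile of all listed genes.

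Abcg1 (chr17:31057675-31117988, plus strand), which passes cholesterol to high-density lipoprotein, measured 73.8 CPM with Wnt2, 127.1 CPM with CAF.CM+Wnt2 Ab, 119.9 CPM with CAF.CM and 168.8 CPM in control. It was highest in control. Its log2 ratio was -1.19 with Wnt2 (-1.23 to -1.16), past 2-fold, and -0.49 with CAF.CM (-0.55 to -0.44). The antibody library lay near CAF.CM, at 0.08 (0.01 to 0.16).

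Among the synthesis and storage genes, Dgat2 (chr7:99153658-99182719, minus strand) encodes an acyltransferase that performs the last step of triglyceride synthesis. It measured 8.08 CPM with Wnt2, 15.0 CPM with CAF.CM+Wnt2 Ab, 14.3 CPM with CAF.CM and 0.791 CPM in control, the last from 112 reads. Every treated library lay above control. The log2 ratio was 3.33 with Wnt2 (3.07 to 3.64) and 4.13 with CAF.CM (3.87 to 4.49), at the 99.9th and 99.6th percentiles of listed genes. The antibody library did not separate from CAF.CM, at 0.07 (-0.15 to 0.28).

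Scd1 (chr19:44394455-44407879, minus strand) and Scd2 (chr19:44293674-44306864, plus strand) encode stearoyl-CoA desaturases, which turn saturated into monounsaturated fatty acids. Scd1 stood at 6.96 CPM with Wnt2, 57.1 CPM with CAF.CM+Wnt2 Ab, 37.3 CPM with CAF.CM and 10.53 CPM in control. Scd2 stood at 248.6 CPM with Wnt2, 588.3 CPM with CAF.CM+Wnt2 Ab, 431.9 CPM with CAF.CM and 130.3 CPM in control. Both were highest in the antibody library, but with Wnt2 Scd1 lay below control and Scd2 above it. With CAF.CM the log2 ratio to control was 1.82 for Scd1 (1.71 to 1.94) and 1.73 for Scd2 (1.70 to 1.76). With Wnt2 it was -0.60 for Scd1 (-0.71 to -0.48) and 0.93 for Scd2 (0.91 to 0.96), both within 2-fold. Against CAF.CM the antibody library gave 0.61 for Scd1 (0.49 to 0.74) and 0.45 for Scd2 (0.41 to 0.48).

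The starts of the Scd1 and Scd2 coding sequences in GENCODE M21, bases 1 to 60, are shown because reads of these close copies could be split by the counting, with capitals where they differ.

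Scd1: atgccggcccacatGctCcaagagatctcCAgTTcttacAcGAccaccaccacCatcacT
Scd2: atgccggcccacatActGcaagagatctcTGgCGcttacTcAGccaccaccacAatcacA

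Their coding sequences were 90.3% identical over 1065 aligned bases, and 24.35% of the 31-base coding words of Scd1 occur in Scd2. Of whole transcripts, 8.26% of the words of Scd1 and 6.86% of those of Scd2 occur in other genes, mainly Scd3, which no table lists. Both values are uncertain for this reason, and these shares do not bound the error. Scd2 was the more abundant in every library, so Scd2 reads counted as Scd1 would weigh more than the reverse. With Wnt2, Scd1 stood at 6.96 CPM against 248.6 CPM for Scd2.

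Pparg (chr6:115360951-115490399, plus strand) encodes PPARγ, the nuclear receptor of adipocyte and alveolar macrophage differentiation. It measured 0.664 CPM with Wnt2, 0.806 CPM with CAF.CM and 4.83 CPM in control, from 102, 21 and 684 reads, and was not listed for CAF.CM+Wnt2 Ab. Both listed treated libraries lay below control, at a level of few reads. The log2 ratio was -2.84 with Wnt2 (-3.18 to -2.56) and -2.55 with CAF.CM (-3.28 to -1.96). Gm44079 overlaps Pparg on the other strand. The sources used here do not say whether reads were counted by strand.

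Counts past 2-fold were set beside the same counts over all listed genes. The 10 genes were chosen with earlier results of these data known, so these shares are not an independent benchmark. With Wnt2, 1 of 10 was at least 2-fold higher (Dgat2), against 2.87% of the 13120 listed genes, and 4 of 10 were at least 2-fold lower (Lpl, Fabp4, Abcg1 and Pparg), against 2.93%. The median log2 ratio was -0.64 over the 10 and -0.02 over all genes. With CAF.CM, 3 of 10 were at least 2-fold higher (Dgat2, Scd1 and Scd2), against 6.68% of 13329 genes, and 3 of 10 at least 2-fold lower (Lpl, Apoe and Pparg), against 8.69%. The medians were -0.25 over the 10 and -0.045 over all genes. With CAF.CM+Wnt2 Ab against CAF.CM, 0 of 9 were 2-fold higher and 0 of 9 were 2-fold lower, against 1.02% and 3.65% of 13072 genes. The medians were -0.38 over the 9 and -0.04 over all genes. Both control comparisons use 1 control library, and CAF.CM stands in the antibody comparison as well. Dgat2, at 0.791 CPM in control, passed the listing limit of about 1 CPM against control only through the treated libraries. Pparg, at 0.664 CPM with Wnt2 and 0.806 CPM with CAF.CM, passed it only through control. The direction of both was thus set in part by the listing.

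Between CAF.CM+Wnt2 Ab and control, whose columns come from separate tables on the same scale, 3 of 9 genes were at least 2-fold higher, against 8.1% of 12882 genes, and 3 of 9 at least 2-fold lower, against 12.6%. The higher ones were Dgat2 at a log2 ratio of 4.20, Scd1 at 2.44 and Scd2 at 2.17. The lower ones were Apoe at -4.13, Lpl at -2.72 and Fabp4 at -1.12. The median was -0.41 over the 9 and -0.06 over all genes. Pparg could not be counted, because it was not listed for CAF.CM+Wnt2 Ab. By the listing limit its level there was under about 1 CPM, against 4.83 CPM in control. In every 2-fold call of the 10 genes in these 4 comparisons the counting interval lay wholly beyond 2-fold.

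**Figure D3:**
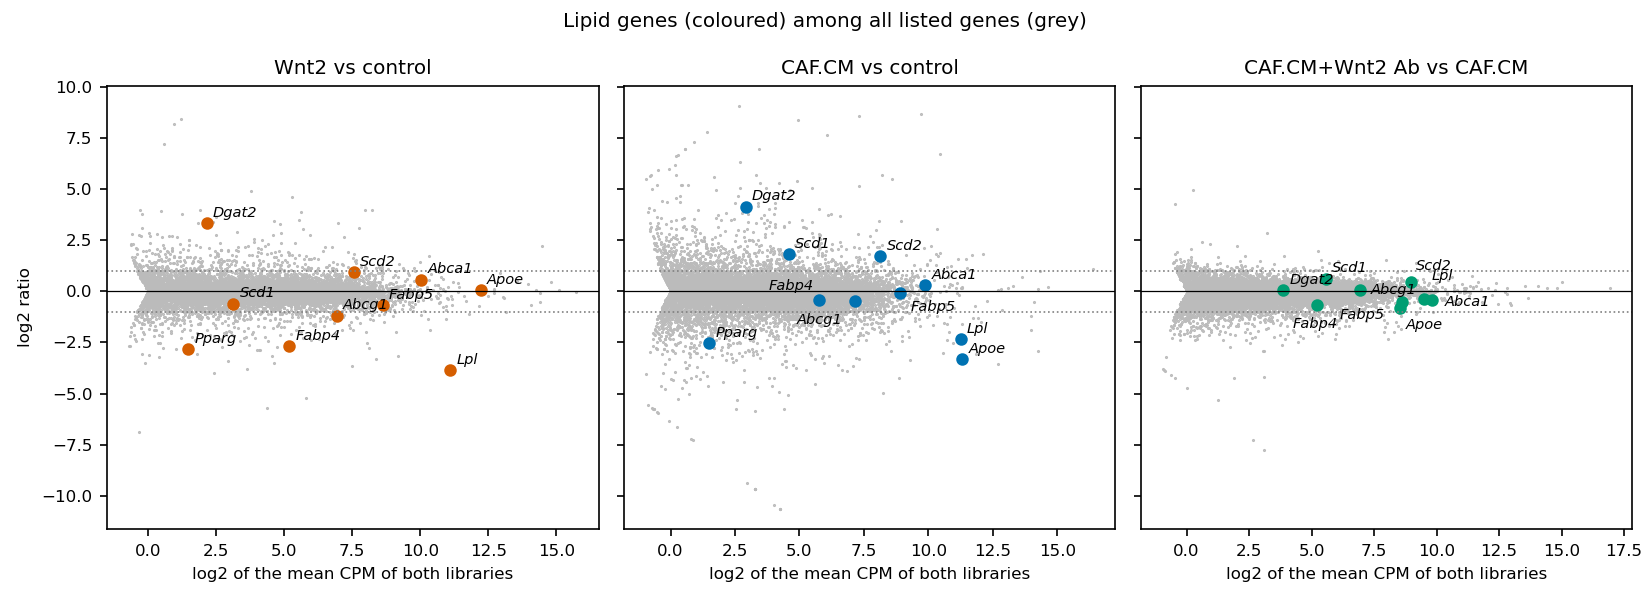
Log2 ratio against the log2 of the mean CPM of both libraries for all listed genes (grey) and the lipid genes (coloured, named), 1 panel per deposited comparison; dotted lines mark 2-fold. Lpl stands far below the cloud at high abundance with Wnt2 (-3.85). With CAF.CM, Lpl and Apoe lie in its lower part (-2.34 and -3.30), and with the antibody all named genes lie between the 2-fold lines.

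In the authors' deposited table for Wnt2 against control, 9 of the 10 genes had an adjusted p below 0.05, as had 15.4% of all genes, the exception being Apoe with 0.911. The authors' deposited table for CAF.CM against control had 6 of the 10 below 0.05, as had 32.6% of all genes, and of the 4 others Abcg1 had 0.0513 and Fabp4 0.0992. In the authors' deposited table for the antibody, 2 of 9 were below 0.05, Apoe at 0.00206 and Fabp4 at 0.0282, as were 6.98% of all genes. How the authors estimated spread from these columns is not stated.

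Genes of the same pathways outside the 10 were taken from 6 lists, also chosen with earlier results of these data known. With Wnt2, 6 of 95 such genes (6.32%) were at least 2-fold higher, against 2.87% of all genes, and 4 of 95 (4.21%) at least 2-fold lower, against 2.93%. With CAF.CM, 6 of 96 (6.25%) were higher, near the 6.68% of all genes, and 17 of 96 (17.7%) were lower, against 8.69%. With CAF.CM+Wnt2 Ab against CAF.CM, 1 of 92 (1.09%) was higher, near the 1.02% of all genes, and 5 of 92 (5.43%) were lower, against 3.65%. The medians over these genes were -0.10, -0.19 and -0.07, beside -0.02, -0.045 and -0.04 over all genes. The counts of the single lists that follow are small and stand beside the same shares and medians of all genes.

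In the uptake list, 2 of 14 genes outside the 10 were at least 2-fold higher and 2 lower with Wnt2 (median 0.09), and 1 and 6 with CAF.CM (median -0.44). Cd36, the fatty acid and oxidised lipoprotein receptor, measured 1128 CPM with Wnt2, 534.0 CPM with CAF.CM+Wnt2 Ab, 706.7 CPM with CAF.CM and 2846 CPM in control. Every treated library lay below control, with log2 ratios to control of -1.34 for Wnt2 and -2.01 for CAF.CM. Lipa, the lysosomal acid lipase, stood at -1.35 with Wnt2 and -1.65 with CAF.CM. The lipase inhibitor gene Angptl4, at 7.55 CPM with Wnt2 against 2.21 CPM in control, and the lipoprotein receptor gene Vldlr were the 2 that were higher with Wnt2, at 1.77 and 1.07. With CAF.CM Angptl4 was instead among the lower genes, at 0.384 CPM against 2.21 CPM in control, a log2 ratio of -2.45 (-3.60 to -1.63) at few reads. With CAF.CM the scavenger receptor gene Msr1 stood at -1.84 and the lipoprotein receptor gene Lrp1 at -1.45. Msr1 was also the 1 of 13 uptake genes below CAF.CM in the antibody library, at -1.30, where none was higher and the median was 0.01.

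In the LXR and cholesterol efflux list, 1 of 17 genes outside the 10 was at least 2-fold higher and 2 lower with Wnt2 (median -0.06), and 1 and 4 with CAF.CM (median -0.61). With Wnt2 the phospholipid transfer protein gene Pltp stood at -1.79 and the LXR-induced gene Arl4c at 1.16. With CAF.CM the lysosomal cholesterol carrier gene Npc2 was higher, at 2031 CPM against 620.8 CPM in control, a log2 ratio of 1.71. Apoc2, which encodes the activator of lipoprotein lipase, stood at -1.53, the cholesteryl ester hydrolase gene Nceh1 at -1.35 and Smpdl3a, known as an LXR target in human macrophages, at -1.28. Against CAF.CM, 0 of 16 were higher and 2 lower with the antibody (median -0.11), among them Apoc2 at -1.30. The LXR genes themselves, named after their values were seen, differed in level. Nr1h2 (LXRβ) measured 63.0 CPM with Wnt2, 61.5 CPM with CAF.CM+Wnt2 Ab, 57.9 CPM with CAF.CM and 50.5 CPM in control. Nr1h3 (LXRα) measured 1.17, 0.948, 2.15 and 3.07 CPM in the same order, and its ratio to control was -1.38 with Wnt2.

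In the storage list, 3 of 22 genes outside the 10 were at least 2-fold higher and 0 lower with Wnt2 (median -0.07), and 3 and 2 with CAF.CM (median -0.13). Hilpda, whose product sits on lipid droplets and blocks a triglyceride lipase, measured 178.1 CPM with Wnt2, 550.0 CPM with CAF.CM+Wnt2 Ab, 273.6 CPM with CAF.CM and 39.2 CPM in control. Every treated library lay above control, with log2 ratios of 2.18 for Wnt2 and 2.80 for CAF.CM. Dgat1, which shares the reaction of Dgat2 but not its sequence, stood at 1.52 with Wnt2 and 1.37 with CAF.CM. The glycerol phosphate acyltransferase gene Gpat3 stood at 2.15 with Wnt2, and the acyl-CoA synthetase gene Acsl1 at 2.28 with CAF.CM. Plin2, the droplet coat gene, was lower with CAF.CM at 197.7 CPM, against 573.4 CPM in control (-1.54). With the antibody 1 of 22 was at least 2-fold higher than with CAF.CM, Hilpda at 1.01 (0.97 to 1.05), and 1 lower (median -0.04).

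In the synthesis and desaturation list, 0 of 16 genes outside Scd1 and Scd2 were past 2-fold in either direction with Wnt2 (median -0.09). With CAF.CM 0 of 17 were higher and 2 lower (median -0.003), among them the desaturase gene Fads1 at -1.52. The fatty acid synthase gene Fasn, named after its values were seen, measured 28.8 CPM with Wnt2, 25.8 CPM with CAF.CM+Wnt2 Ab, 25.6 CPM with CAF.CM and 27.3 CPM in control. Its levels were close to each other in all 4 libraries, where Scd1 spanned 6.96 to 57.1 CPM. With the antibody 0 of 16 were higher and 1 lower than with CAF.CM (median -0.10).

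In the list of PPAR partners and targets, 1 of 14 genes outside the 10 was at least 2-fold higher and 1 lower with Wnt2, Angptl4 and Cd36 (median -0.17). With CAF.CM 1 was higher and 6 were lower (median -0.82), among them Cd36, Angptl4, Plin2, Cebpa at -1.39 and Cpt1a at -1.10. Cebpa encodes a partner of PPARγ in adipocyte differentiation, and Cpt1a the gate of fatty acid entry into mitochondria. With the antibody 0 of 13 passed 2-fold either way (median -0.07). Of fatty acid oxidation genes, 0 of 18 passed 2-fold with Wnt2 (median -0.24), 1 of 18, Cpt1a, was lower with CAF.CM (median -0.33), and 0 of 17 passed it with the antibody (median -0.07). Several genes stand in more than 1 list.

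**Figure D4:**
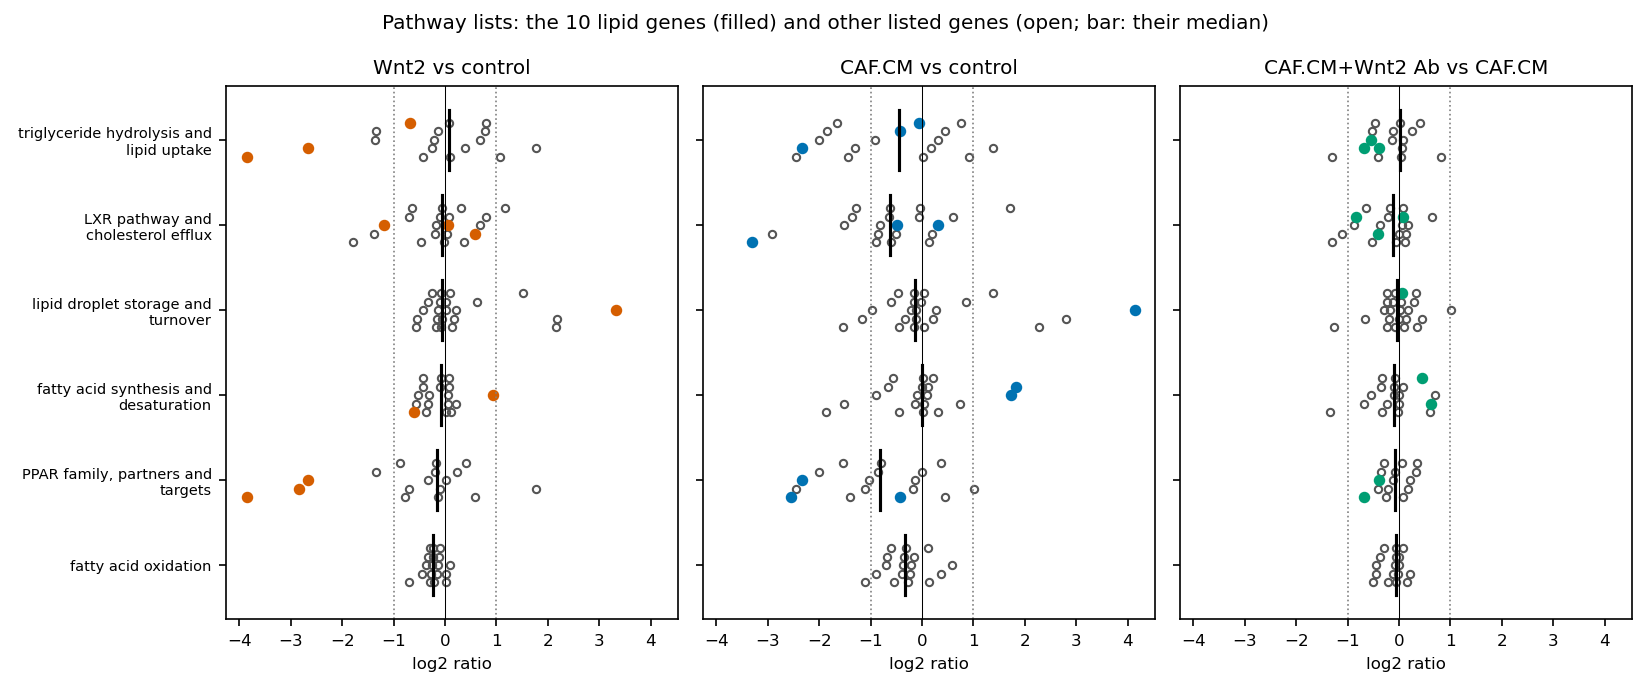
Log2 ratios of the genes of 6 lipid pathway lists (rows) in the 3 deposited comparisons, with the 10 lipid genes filled, other listed genes open and a bar at the median of the open points; vertical offsets carry no meaning. With CAF.CM the open points of the PPAR list have their median at -0.82 and those of the LXR list at -0.61, while with the antibody all but a few points lie within 2-fold (dotted lines).

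The genes nearest in pattern were found by the distance between log2 CPM profiles centred on each gene's mean, over 4 libraries and 9474 candidate genes, for the 9 members with at least 5 CPM in 1 library. Over 4 points such nearness is a description only. For Lpl the nearest was Ptx3 at a distance of 0.753, with 1.65 CPM in Wnt2, 3.23 CPM in CAF.CM+Wnt2 Ab, 8.18 CPM in CAF.CM and 23.1 CPM in control. For Apoe they were the chemokine gene Ccl9 at 0.111 and the fibronectin gene Fn1 at 0.224. Ccl9 measured 1299, 66.3, 113.3 and 1151 CPM in the same order. For Fabp4 the nearest was Cd74, the invariant chain of MHC class II, at 0.574. For Fabp5 it was the phagocyte oxidase gene Cybb at 0.070, for Abca1 Fmo5 at 0.058 and for Abcg1 Nav2 at 0.111. For Scd1 it was Unc93a at 0.109, for Scd2 Slc6a13 at 0.178, and for Dgat2 Gipr and the stress-induced gene Ddit4 at 0.550 each. Among the 10 genes themselves Abcg1 and Fabp5 lay 0.588 apart, Scd1 and Scd2 1.44 apart, and Lpl and Apoe 4.21 apart. The median distance to all candidates was 0.985 for Abcg1, 0.767 for Fabp5 and 0.697 for Abca1. It was 2.60 for Scd1, 1.76 for Scd2, 2.81 for Lpl and 3.73 for Apoe.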

How the data were processed

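Stranded total RNA libraries were made from 1 ug of RNA after ribosomal RNA removal, per the labels' protocols. Per the submitters' processing notes, the tools were edgeR, RSEM 1.2.29 and STAR 2.4.2a and the builds mm10 and GRCm38.p5; the sources used here state no settings. The authors deposited 3 tables of normalized CPM with 3 decimals, 1 per comparison, with log2 fold changes, p-values and adjusted p-values, per the file headers.

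The plan had assumed counts. All CPM values were whole multiples of the worth of 1 read within 0.1 step, in 100% of values of each library, and reads were recovered from these steps. Each group has 1 library, so p-values were not computed. Log2 ratios are differences of edgeR 4.0.16 log2 CPM (R 4.3.3) with a prior count of 2 and the library sizes that the deposited CPM imply. Intervals are exact conditional binomial intervals at 95% (scipy 1.17.1, Python 3.11.15, numpy 2.4.6, pandas 2.3.3), levels have Poisson intervals, and figures used matplotlib 3.10.9. Reads are not independent molecules, so both cover counting error only.

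All 10 genes are named in each comparison. From each of 6 pathway lists up to 4 other genes were named, by ratio, among those that reached 200 counts in the summed pair of libraries and 5 CPM in either; Nr1h2, Nr1h3, Fasn and, with CAF.CM, Angptl4 fall outside this rule. Further, 6 marker lists describe the cells. The genes and lists were chosen with earlier results of these data known. Gene positions, transcript lengths and 31-base shared words came from GENCODE M21 (GRCm38), coding alignments from Biopython 1.88. The alternatives tried were scaling by total counts or by size factors of DESeq2 1.42.0, prior counts of 0.5 and 5, the deposited log2 fold changes, a minimum of 100 counts and a 1.5-fold threshold; those for CAF.CM+Wnt2 Ab against control were added after the data were seen.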

Additional observations from a re-analysis of the deposited data

How the results depend on the processing

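No paired analysis was possible because each group has 1 library and the labels carry no replicate numbers, so no library could be left out either. Under DESeq2 size factors, total counts, prior counts of 0.5 and 5 and the deposited log2 fold changes, no 2-fold call of the 10 genes changed, and the median of all genes moved by at most 0.061 on the log2 scale. Single log2 ratios stayed within their counting intervals in 151 of 181 recomputed values and moved beyond them in 30, and 0 of the called ones changed sign; among values under 2-fold, Fabp5 with CAF.CM turned positive with total counts. With a 1.5-fold threshold, 2 of the 10 genes were higher and 6 lower with Wnt2, in place of 1 and 4. With the antibody 1 was then higher and 2 were lower than with CAF.CM, in place of 0 and 0, and 4 were lower than in control, in place of 3. Over all genes that threshold gave 968 higher and 1049 lower with Wnt2, 1838 and 2387 with CAF.CM, 575 and 1400 with the antibody against CAF.CM, and 2247 and 3079 with the antibody against control. With at least 100 counts in 1 library, the antibody comparison held 47 higher and 261 lower genes in place of 133 and 477, and 2 lower pathway genes in place of 5, since fewer genes were counted. With total counts 0 pathway genes were higher with the antibody, Hilpda falling just short of 2-fold. Pparg rests on 21 reads in the CAF.CM library, and Dgat2 on 112 reads in control.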

Other observations

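Genes within 100 kb of the 10 were looked at as values only. Beside Apoe lie further apolipoprotein genes, and Apoc2 stood at a log2 ratio of 0.79 with Wnt2 and -1.53 with CAF.CM, both against control, and Apoc1 at -0.70 and -2.93 in the same order, from a low level of 1.62 CPM in control. Bcam, an adhesion molecule gene on the other side of the cluster, stood at -0.91 and -1.995. Its level was low too, at 2.37 CPM in control and 0.576 CPM with CAF.CM. The neighbours Clasrp, Relb, Clptm1, Tomm40 and Nectin2 stayed within 2-fold in the Wnt2, CAF.CM and antibody comparisons. Beside Lpl, Ints10 stood at -0.26 with Wnt2 and 0.20 with CAF.CM, where Lpl stood at -3.85 and -2.34. Beside Dgat2, Map6 stood at 1.14 with Wnt2 and 0.14 with CAF.CM, and Uvrag at 0.35 and 0.10. Beside Abca1, Nipsnap3b stood at -0.12 with Wnt2 and -1.07 with CAF.CM.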
